A study of Homo sapiens with 8 samples.

Results

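Receptor tyrosine kinases are the subject here, outside the ERBB, FGFR, ROR and RYK families. The 42 genes were listed by name and looked up by symbol among the 58202 Ensembl gene identifiers of the series. All 42 were found. DDR1 and EPHB6 occurred under more than 1 identifier, and the identifier with the highest mean was kept for each. The 7 identifiers left aside were listed at 0 in every line. Levels are FPKM (fragments per kilobase of transcript, scaled to the mapped fragments of the library), so they are per length and can be set side by side between genes. A gene is called detected at an FPKM of 1 or more. Differences are given as log2(FPKM + 1), on which differences of weakly expressed genes look smaller than they are.

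Levels were measured in 8 human cancer cell lines, all with ERBB4, the neuregulin receptor, and with no drug named in the labels. Of the lung lines H146 is a small cell cancer, H661 a large cell cancer and H522 is labelled as non-small cell. KLE is from an endometrial adenocarcinoma, HEC59 from an endometrial carcinoma, COV318 from an ovarian serous carcinoma, H716 from a colorectal adenocarcinoma of the cecum and 1321N1 from an astrocytoma of the brain. The cells were grown for 48 hours in plates, at passages from 3 to 15, and each line gave 1 library. The study concerns the response of such lines to ibrutinib, a kinase inhibitor, but response is not labelled line by line, so no comparison by response was made. A level measured in 1 library has no replicate error, and differences between single lines were not tested.

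A receptor tyrosine kinase is a single-pass membrane protein that binds a ligand outside the cell, pairs with another receptor molecule and phosphorylates tyrosines inside the cell. Adaptor proteins dock on these tyrosines and pass the signal to the RAS-MAPK and PI3K pathways. In carcinomas MET, IGF1R, AXL and the EPH receptors are known for roles in growth, survival, invasion and resistance to kinase inhibitors. KIT, PDGFRA, RET, NTRK3 and ALK are better known from particular lineages, where mutation or fusion can activate them.

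Across the libraries 12205 to 13300 genes were detected per line, and relative depth, read from the steps of low values, ranged from 1 in KLE to 2.67 in 1321N1. None of 10 housekeeping genes was listed at 0 in any line. The steps also split the lines into a set of H716, KLE, H661 and H522 and a set of the other 4. The labels name no batch for these sets, and values within each set are given beside the tissue comparisons. Of the labelled tissues, the Mullerian genes PAX8, SOX17 and EMX2 were detected in KLE, HEC59 and COV318. PAX8 was also at 5.84 in 1321N1 and 1.68 in H522, and MUC16, another Mullerian marker, was at 0.111 in COV318. The intestinal cadherin CDH17 was at 137 in H716. The other intestinal markers were low there, with CDX2 at 1.31 and VIL1 at 1.07, and VIL1 was higher in H146 at 8.74. Lung markers were mostly below 1 in the lung lines, with NKX2-1 detected in H661 alone and SFTPB and SFTPC below 1 in all 8 lines. In the glial line GFAP was at 3.10, while OLIG1 and S100B were listed at 0. The neuroendocrine markers CHGA and INSM1 were detected in H146 and H716 alone.

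Of the 42 receptor genes, 31 (73.8%) were detected in at least 1 line, close to the 72.5% of protein-coding genes that were. What set the receptors apart by count was how few of them were present everywhere. Only MET, IGF1R, PTK7 and DDR1 were detected in all 8 lines, 4 genes or 9.52%, against 41% of protein-coding genes. Without H146 the number was 7, because TYRO3, EPHA2 and EPHB4 fell below 1 in that line alone. A further 14 receptors were detected in 1 or 2 lines. The number detected per line was 22 in KLE, 19 in 1321N1, 17 in H661, 15 in H522, 13 in COV318 and in H146, 12 in HEC59 and 11 in H716.

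**Figure D1:**
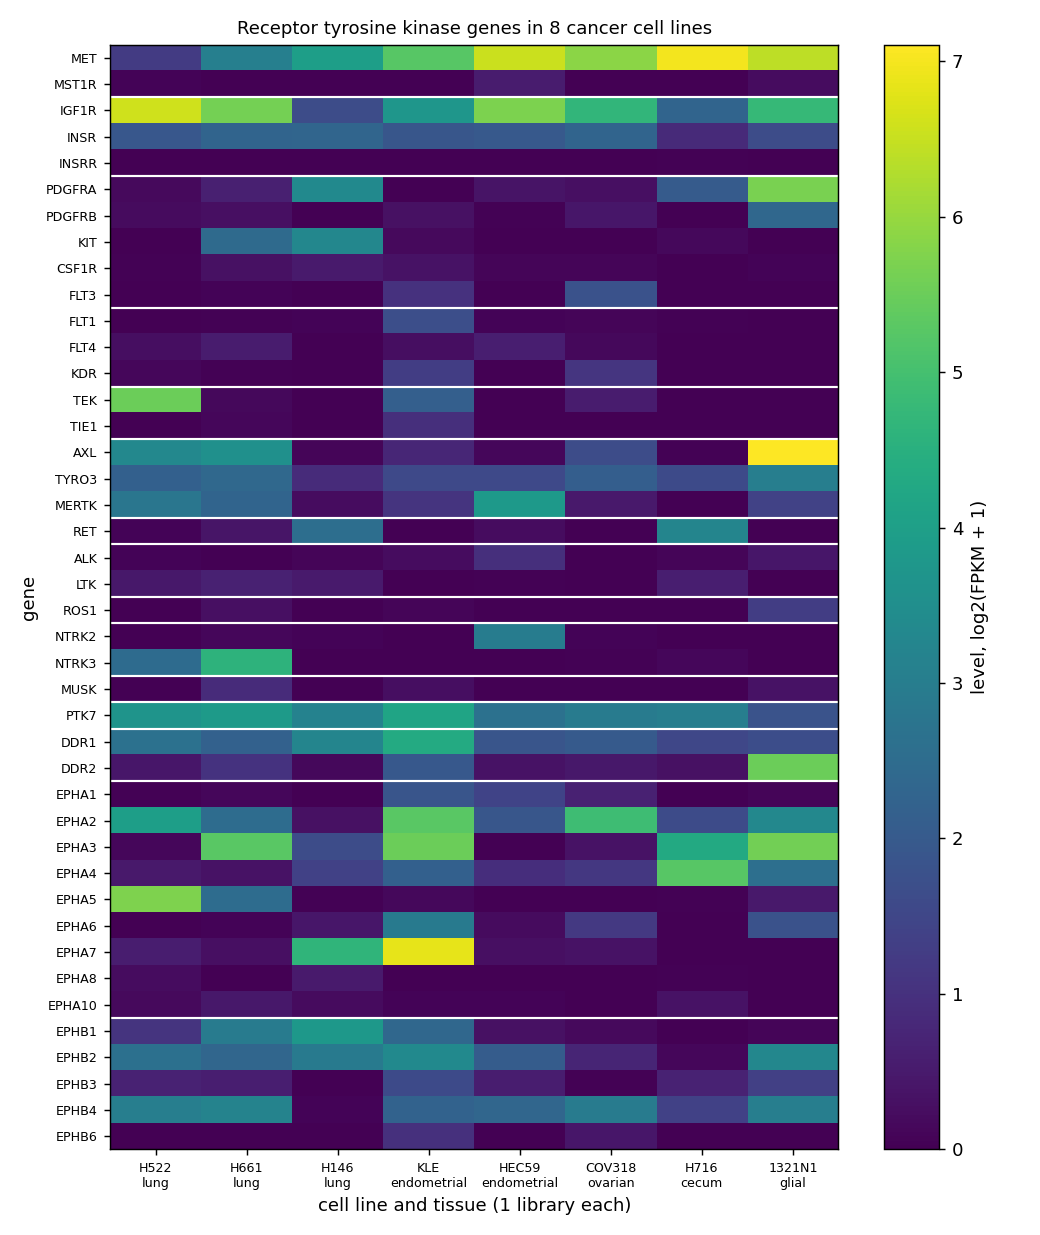
Level of each of the 42 receptor genes (rows, grouped by family with white lines) in the 8 lines (columns, with tissue), as log2(FPKM + 1) in colour. MET, IGF1R, PTK7 and DDR1 are above 0 in every column, while TEK, NTRK2, NTRK3, EPHA5 and EPHA7 are bright in 1 or 2 columns.

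The level of a receptor often rested on 1 line. A gene was said to be led by a line when its FPKM there was at least 5 and its log2(FPKM + 1) was at least 2 above that of the next line. Of the 23 receptors that reached 5 in some line, 9 (39.1%) were led by 1 line, against 7.42% of the protein-coding genes that reached 5. The 9 were AXL, DDR2 and PDGFRA in 1321N1, TEK and EPHA5 in H522, NTRK3 in H661, EPHA7 in KLE, EPHA4 in H716 and NTRK2 in HEC59. COV318 and H146 led none. After upper-quartile scaling or quantile normalization 7 receptors were led. Among receptors that passed the filter for testing, 27 of 42, the median SD across lines was 1.35 (log2), and it was 0.67 over all 15650 genes tested. That filter asks for detection in at least 2 lines, so it leaves out the receptors that are low everywhere, and this difference in spread was not tested.

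The receptor that ranked first differed by line. MET was first in H716, HEC59 and COV318, IGF1R in H522 and H661, EPHA7 in KLE and H146, and AXL in 1321N1. MET alone made up 58.4% of the summed FPKM of the 42 genes in H716, 47.3% in HEC59 and 38.9% in COV318. IGF1R made up 35.4% in H522, EPHA7 34.0% in KLE and AXL 30.7% in 1321N1. The summed level itself ranged from 111 in H146 to 445 in 1321N1, which is 0.0294% and 0.0870% of all FPKM in those lines when entries above 100000 are left out. In these bulk samples a lower level can mean fewer cells with the transcript or less of it per cell, and these cannot be told apart.

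**Figure D2:**
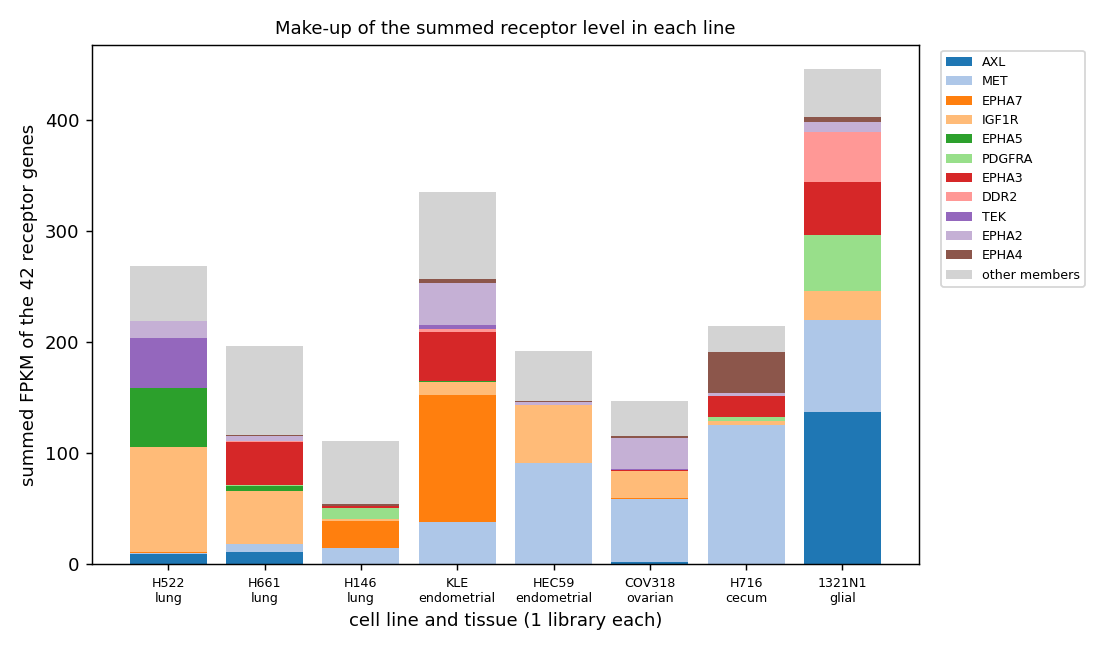
Summed FPKM of the 42 receptor genes in each line (bars from 0), split into the 11 genes with the highest single values and all other members. The bars run from 111 in H146 to 445 in 1321N1, with MET the largest part in H716, HEC59 and COV318 and EPHA7 in KLE.

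ERBB4, the receptor shared by the series, was exceeded by few of these receptors. None was above it in H522, where ERBB4 stood at 102 and IGF1R came next at 95.0. In HEC59, H716 and COV318 MET was the single receptor above ERBB4, at 91.0 against 85.3, 125 against 76.1 and 57.0 against 36.3. In H661 IGF1R and EPHA3 were above it, and in H146 EPHA7 and MET. KLE had 4 receptors above ERBB4 (EPHA7, EPHA3, EPHA2 and MET), and 1321N1 had 5 (AXL, MET, PDGFRA, EPHA3 and DDR2).

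**Figure D3:**
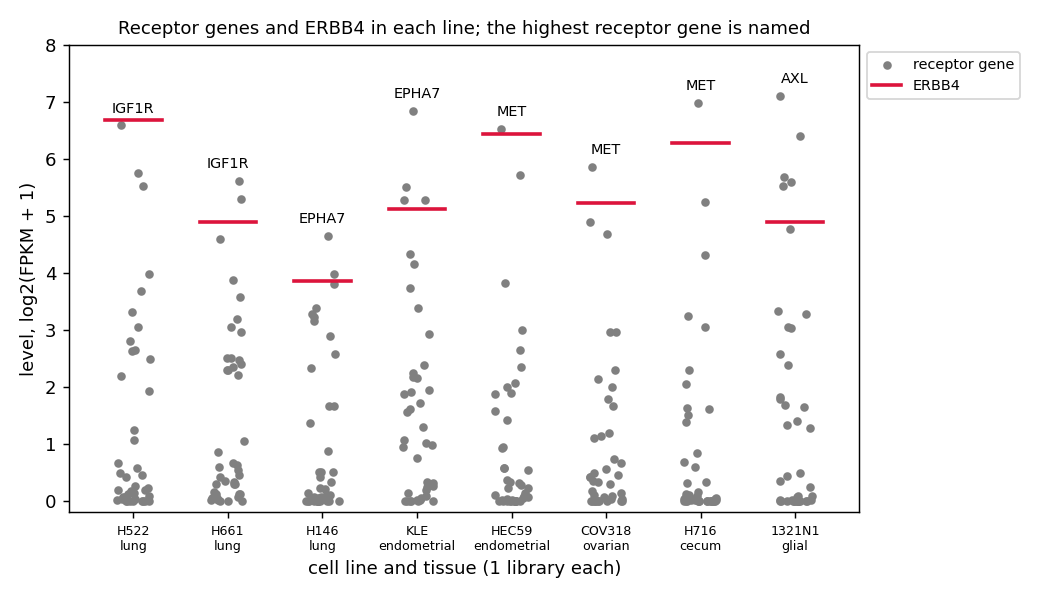
Level of every receptor gene (grey points, spread sideways for legibility) and of ERBB4 (red bar) in each line, as log2(FPKM + 1). In H522 no point lies above the bar, and in 1321N1 5 points do.

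The promoter sequences show how unlike the receptor genes are at their start sites. Promoter sequences at RefSeq starts (GRCh38.p14) were matched to 39 of the 42 genes (not INSRR, FLT4 or EPHA10). The 250 bases before each start were searched for the dinucleotide CG, which reads the same on both strands. Promoters rich in CG are common among genes expressed in many tissues, and CG-poor promoters among genes of particular tissues. The receptors detected in 5 to 8 lines had a median of 24.5 CG (12 genes), those detected in 1 to 4 lines 17 (19 genes) and those below 1 in every line 10 (8 genes), against 11 for all 27303 promoters, of which 93.6% hold at least 1 CG. The ranges overlapped widely, at 6 to 48, 0 to 34 and 1 to 42. The promoters of 4 genes are printed for this spread, with CG in capitals: IGF1R with 48 CG, detected in all lines, KIT with 34 yet detected in H661 and H146 alone, and TEK with 5 and DDR2 with none, led by H522 and by 1321N1. Which start these lines use was not measured.
IGF1R, chr15:98648289-98648538, plus strand: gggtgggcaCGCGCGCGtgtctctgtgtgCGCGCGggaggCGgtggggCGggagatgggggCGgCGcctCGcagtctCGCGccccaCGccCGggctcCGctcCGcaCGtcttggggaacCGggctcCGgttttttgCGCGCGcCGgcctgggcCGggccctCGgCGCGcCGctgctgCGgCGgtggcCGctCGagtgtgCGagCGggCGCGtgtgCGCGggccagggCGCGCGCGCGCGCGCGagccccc
KIT, chr4:54657707-54657956, plus strand: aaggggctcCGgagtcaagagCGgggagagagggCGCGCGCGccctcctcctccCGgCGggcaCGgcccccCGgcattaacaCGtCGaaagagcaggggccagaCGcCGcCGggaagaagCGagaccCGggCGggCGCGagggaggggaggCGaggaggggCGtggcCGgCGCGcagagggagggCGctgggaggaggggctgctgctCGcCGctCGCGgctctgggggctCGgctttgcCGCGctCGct
TEK, chr9:27108975-27109224, plus strand: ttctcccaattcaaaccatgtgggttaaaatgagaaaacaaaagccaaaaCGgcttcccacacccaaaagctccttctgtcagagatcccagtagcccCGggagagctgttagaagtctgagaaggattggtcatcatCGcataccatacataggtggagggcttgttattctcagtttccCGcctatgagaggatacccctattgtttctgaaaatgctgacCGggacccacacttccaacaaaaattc
DDR2, chr1:162630613-162630862, plus strand: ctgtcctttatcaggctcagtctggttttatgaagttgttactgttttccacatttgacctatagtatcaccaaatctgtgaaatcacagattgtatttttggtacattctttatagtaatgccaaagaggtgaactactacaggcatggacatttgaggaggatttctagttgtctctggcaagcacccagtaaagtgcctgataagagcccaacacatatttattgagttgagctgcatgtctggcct

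MET (ENSG00000105976), the receptor of hepatocyte growth factor (HGF), reached an FPKM of 5 in 7 lines, as PTK7 did. Its FPKM was 125 in H716, 91.0 in HEC59, 83.0 in 1321N1, 57.0 in COV318, 37.5 in KLE, 14.7 in H146, 7.32 in H661 and 1.36 in H522. The 3 lung lines were the 3 lowest, and they did not overlap with the others. HGF was detected in H522 alone, at 3.75, which is the line with the lowest MET. It was listed at 0 in H146, KLE, HEC59, COV318 and H716. MST1R, the related receptor of macrophage-stimulating protein, stayed at or below 0.459 in every line, although its ligand gene MST1 reached 21.2 in COV318 and 5.63 in KLE.

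IGF1R (ENSG00000140443), the receptor of insulin-like growth factors, spread over a wider range than the insulin receptor. It was at 95.0 in H522, 51.6 in HEC59, 47.8 in H661, 26.1 in 1321N1, 24.5 in COV318, 12.3 in KLE, 3.90 in H716 and 2.15 in H146. H716 and H146, the lines with neuroendocrine markers, were the lowest. INSR, the insulin receptor, lay between 2.14 and 4.00 in 7 lines and at 0.790 in H716. INSRR, a related receptor, did not exceed 0.0234. Of their ligands, IGF2 reached 13.6 in HEC59, against 2.53 in COV318 and 6.65 in KLE, and was below 0.5 in the other lines. IGF1 was detected in KLE alone, at 4.75, and INS was listed at 0 in all lines.

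The platelet-derived growth factor (PDGF) receptors marked 1321N1. PDGFRA (ENSG00000134853), which binds PDGF-A and PDGF-C, was at 50.1 in 1321N1, 9.38 in H146 and 3.13 in H716, and between 0.00965 and 0.555 in the other 5 lines. PDGFRB, its partner receptor, was detected in 1321N1 alone, at 4.19. In 1321N1 the ligand genes PDGFC and PDGFA stood at 33.6 and 12.4. The highest PDGFC of the series, 477 in H522, occurred where PDGFRA was at 0.128. PDGFRB is known from pericytes, and the samples here are cancer cell lines grown in plates. Of the pericyte markers CSPG4 was at 9.77 in 1321N1, RGS5 was higher in H661 (50.6) and KLE (28.3) than in 1321N1 (9.44), KCNJ8 was highest in H716 (19.1), and ABCC9 was at most 2.25. The relation of these markers to the PDGF receptor levels was not tested.

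KIT, CSF1R and FLT3 are receptors of the same structural class that are best known from blood cells. KIT (ENSG00000157404), the receptor of stem cell factor, was at 8.69 in H146 and 4.51 in H661 and at most 0.139 in the other 6 lines. Its ligand gene KITLG was detected in 7 lines, at 44.8 in H522, 20.8 in 1321N1, 15.4 in H716 and 10.3 in H146, so H146 had receptor and ligand together at similar levels. H661 paired KIT with KITLG at 1.55. FLT3 reached 2.44 in COV318 and 1.03 in KLE. CSF1R did not exceed 0.422. The 6 blood cell markers, PTPRC and CD14 among them, were below 1 in every line, and their summed FPKM ran from 0.123 in H522 to 1.92 in H146.

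The vascular receptors were low apart from TEK. TEK (ENSG00000120156), the angiopoietin receptor, was at 44.7 in H522 and 3.46 in KLE, at 0.469 in COV318 and 0.115 in H661, and listed at 0 in H146, H716, 1321N1 and HEC59. Its ligand gene ANGPT1 was at 3.91 in H522, 6.14 in H661, 5.69 in H716 and 1.76 in 1321N1. ANGPT2 was detected in H146 alone, at 3.93, and ANGPT4 in no line. Of the receptors of vascular endothelial growth factors (VEGF), FLT1 was detected in KLE alone at 2.27, KDR in KLE at 1.45 and in COV318 at 1.14, and FLT4 in no line. KLE also had the highest TIE1, at 0.936. The endothelial markers PECAM1, VWF, CLDN5 and EMCN were below 1 in every line, PECAM1 at 0 throughout, and CDH5 was at 2.53 in HEC59, where TEK was at 0. The summed level of these 5 markers was 0.0743 in H522, 0.802 in KLE and 0.224 in COV318. Of the VEGF family ligands VEGFB was detected in all 8 lines at 6.81 to 26.4 and VEGFA in 7 at 5.74 to 28.8. The others were as restricted as the receptors, with VEGFC detected in 1321N1 (22.4) and COV318 (6.54), PGF in 1321N1 alone (5.56) and FIGF in no line. NRP1, a co-receptor, was at 67.0 in H716, where FLT1 was at 0.0227 and KDR was listed at 0.

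AXL, TYRO3 and MERTK bind GAS6, and TYRO3 and MERTK also bind protein S. AXL (ENSG00000167601) was at 137 in 1321N1, 10.9 in H661, 8.94 in H522, 2.15 in COV318, 0.685 in KLE, 0.0974 in HEC59, 0.0733 in H146 and 0.0337 in H716, the widest span of the 3. The lowest 4 lines were the 2 endometrial lines and the 2 with neuroendocrine markers. MERTK was highest in HEC59, where AXL was at 0.0974, at 13.2, followed by 5.95 in H522, 3.92 in H661, 1.65 in 1321N1 and 1.10 in KLE. It was below 1 in COV318, H146 and H716. TYRO3 varied least, at 7.23 in 1321N1, 4.30 in H661, 3.57 in H522, 3.39 in COV318, 2.04 in H716, 1.98 in HEC59, 1.96 in KLE and 0.835 in H146. GAS6 was detected in 1321N1 at 7.76 and in H146 at 4.07, and PROS1, which encodes protein S, in all lines but HEC59, with 39.4 in H661. HEC59, with the highest MERTK, thus had PROS1 at 0.0116 and GAS6 at 0.331.

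Receptors known from neural and neuroendocrine tissue divided the lines in different ways. RET (ENSG00000165731), which signals for ligands of the GDNF family together with a GFRA co-receptor, was at 8.48 in H716 and 4.98 in H146 and at most 0.334 in the other lines. These are the lines with CHGA and INSM1. Their GFRA1 was at 0.256 and 0, and GFRA3 was at 2.74 in H146. GFRA1 was high where RET was not, at 59.8 in COV318 and 49.5 in KLE. Of the 4 RET ligands NRTN alone was detected, in HEC59 at 1.39. NTRK3 (ENSG00000140538), the receptor of neurotrophin-3, was at 23.2 in H661 and 4.58 in H522 and at most 0.0906 elsewhere. NTF3, its ligand gene, was listed at 0 in both of these lines and detected in H146 at 4.43 and in KLE at 1.94. NTRK2, the receptor of brain-derived neurotrophic factor, was detected in HEC59 alone at 6.94, where its ligand gene BDNF was listed at 0. NTRK2 and NTRK3 also give rise to forms without a kinase domain, and values per gene do not tell the forms apart.

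ALK, LTK, MUSK and ROS1 were low throughout. ALK was highest in HEC59 at 0.933, LTK in H661 at 0.586 and MUSK, the receptor of the neuromuscular junction, in H661 at 0.817. ROS1 was detected in 1321N1 alone at 1.43. Some of their partners were higher: AGRN, which encodes the MUSK ligand agrin, was at 65.2 in KLE and 36.1 in COV318, and NELL2, a ROS1 ligand gene, at 56.3 in H661 and 0.527 in 1321N1. The ALK ligand gene FAM150B was at 7.51 in HEC59.

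PTK7 and the collagen receptors completed the picture outside the EPH family. PTK7 (ENSG00000112655), a WNT co-receptor without kinase activity, was the most even of the 4 receptors detected everywhere, at 16.8 in KLE, 13.6 in H661, 11.9 in H522, 7.93 in H146, 7.25 in H716, 6.76 in COV318, 5.23 in HEC59 and 2.55 in 1321N1. DDR1 (ENSG00000204580), a collagen receptor of epithelial cells, was at 19.2 in KLE, 8.40 in H146, 5.26 in H522, 3.65 in H661, 3.01 in COV318, 2.67 in HEC59, 2.23 in 1321N1 and 1.83 in H716. DDR2 (ENSG00000162733), the collagen receptor of mesenchymal cells, was at 44.9 in 1321N1, 2.86 in KLE and 1.06 in H661 and at most 0.367 in the other 5 lines. The summed FPKM of 5 epithelial markers was highest in KLE, the line with the most DDR1, at 2240, but HEC59 had the next sum, 530.8, with DDR1 at only 2.67. That of 5 mesenchymal markers was highest in 1321N1, the line with the most DDR2, at 3323. KLE and H661 had mesenchymal sums of 1406 and 1388 with DDR2 at 2.86 and 1.06. Single genes carried much of such sums, with VIM at 1371 in H661, and FN1 at 956 and KRT18 at 1331 in KLE. The lowest epithelial sum was 15.9 in 1321N1 and the lowest mesenchymal sum 27.8 in H146. The part of these cell states in the DDR levels was not tested.

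The EPH receptors bind ephrins on neighbouring cells. They are the largest family of the 42, with 14 members, of which 11 were detected and 9 reached an FPKM of 5 in some line. Together they made up 68.5% of the summed receptor FPKM in KLE, 43.7% in H146 and 7.16% in HEC59, the lowest share. KLE had 10 of the 14 detected, and H716, HEC59 and COV318 had 4.

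Of the EPHA group, which mostly binds A-type ephrins, EPHA2 (ENSG00000142627) was the most widespread. It was at 37.8 in KLE, 28.6 in COV318, 14.8 in H522, 9.04 in 1321N1, 4.70 in H661, 2.73 in HEC59, 2.11 in H716 and 0.254 in H146. EPHA3 (ENSG00000044524) was at 47.4 in 1321N1, 44.4 in KLE, 38.3 in H661, 19.0 in H716 and 2.17 in H146, against 0.276 in COV318, 0.0987 in H522 and 0 in HEC59. The 3 lines below 1 came from 3 tissues, and H146 lay between them and the 4 high lines. EPHA4, a receptor for both ephrin classes, was at 37.0 in H716 and at most 4.99 elsewhere. EPHA5 was at 52.6 in H522, 4.70 in H661 and at most 0.412 elsewhere, so the lung lines without small cell histology were the lines that had it. EPHA7 (ENSG00000135333) was at 114 in KLE and 24.1 in H146 and at most 0.484 in the other 6. EPHA6 was detected in KLE at 6.56, 1321N1 at 2.45 and COV318 at 1.28, and EPHA1 in KLE at 2.65 and HEC59 at 1.69. EPHA8 and EPHA10 were below 0.5 in every line.

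In the EPHB group, which binds B-type ephrins, EPHB4 (ENSG00000196411) and EPHB2 (ENSG00000133216) were the broadest. EPHB4 was at 8.07 in H661, 7.28 in 1321N1, 7.25 in H522, 6.82 in COV318, 4.08 in HEC59, 3.72 in KLE, 1.61 in H716 and 0.0452 in H146. EPHB2 was at 9.38 in KLE, 8.72 in 1321N1, 6.42 in H146, 5.22 in H522, 4.07 in H661 and 3.20 in HEC59, and below 1 in COV318 and H716. H146 thus had EPHB2 detected and EPHB4 below 1. EPHB1 was at 12.9 in H146, 6.82 in H661, 4.21 in KLE and 1.09 in H522, which includes the 3 lung lines, and was at most 0.242 elsewhere. EPHB3 was at 2.05 in KLE and 1.52 in 1321N1. EPHB6, which lacks kinase activity, reached 0.965 in KLE and was not detected.

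The ephrins also differed between lines, and their spread was not measured against that of the receptors. Not all ranged widely: EFNA2 reached 1.36 at most, EFNA3 2.19 and EFNB3 4.03. EFNA5 was at 64.5 in H716, 53.2 in COV318, 37.1 in 1321N1, 29.0 in KLE, 12.8 in H146 and 5.97 in HEC59, but at 0.778 in H661 and 0.0732 in H522, the lines with EPHA5. EFNA4 lay between 1.50 and 11.9 in 7 lines and at 0.0364 in H146. EFNB2, the ligand of EPHB4, was at 6.37 to 22.3 in 6 lines and at 0.0227 in H522. H146, with 0.492 of EFNB2, was low in that ligand and in its receptor.

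Of all 42 ligand genes listed, 33 were detected in some line, against 72.5% of protein-coding genes. The number per line ran from 13 in H146 to 22 in KLE and in 1321N1. Only PDGFC and VEGFB were detected in all 8 lines, as 41% of protein-coding genes were. Of 8 co-receptor genes 5 were detected in some line, to be set against the same 72.5%.

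**Figure D4:**
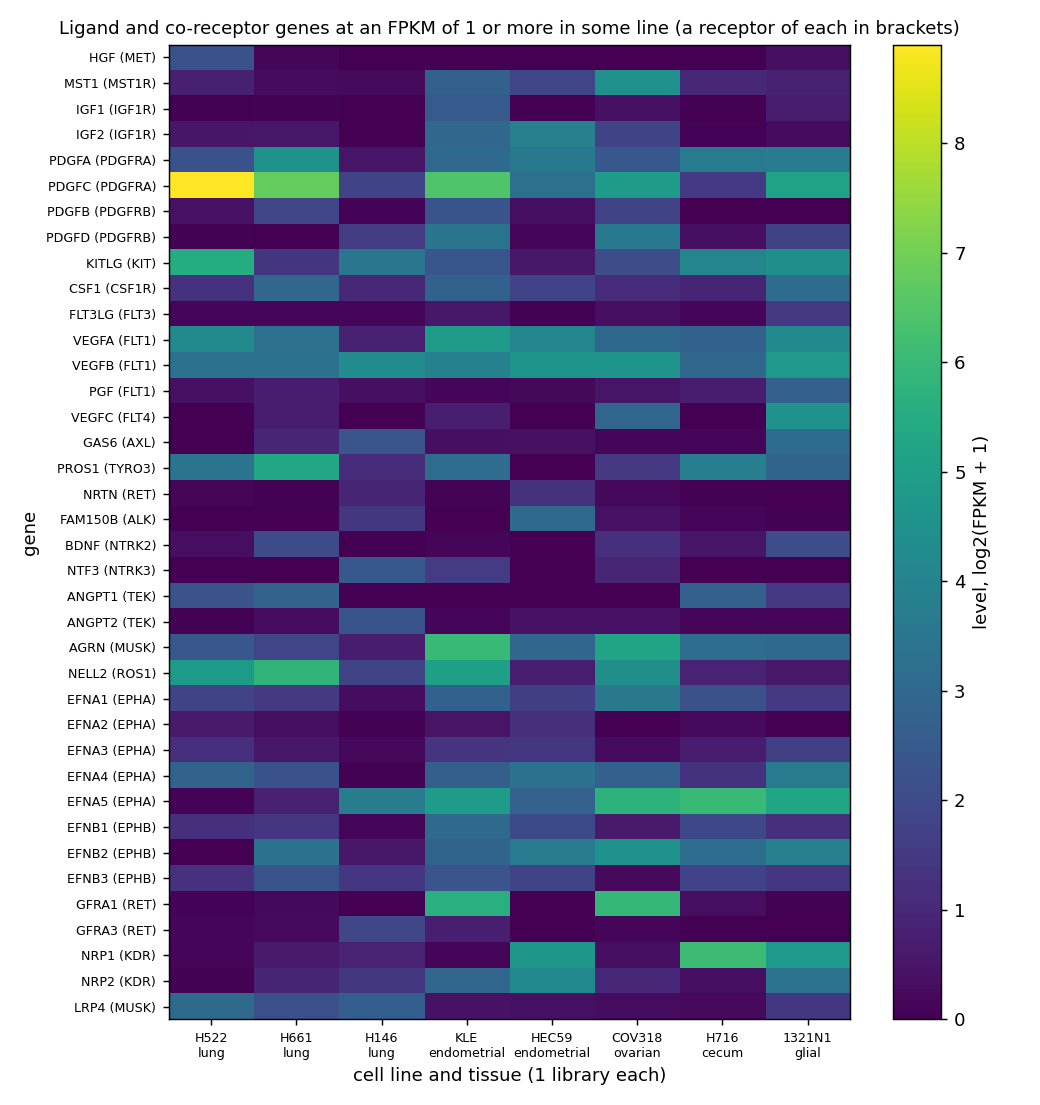
Level of the ligand and co-receptor genes detected in at least 1 line (rows, with a receptor or receptor group in brackets) in the 8 lines (columns), as log2(FPKM + 1) in colour. PDGFC is brightest in H522 at 477, while HGF is above 1 in H522 alone.

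The tissue comparison asked whether lung lines differ in receptor levels from lines of other tissues. Lung lines, 3 different tumours, were compared with the other 5 lines in a limma fit over 15650 genes. No receptor passed after Benjamini-Hochberg adjustment (limma, 0 of 27 tested, against 0.0256% of all genes). At an unadjusted p under 0.05 there were 5 of 27 receptors, 4 higher and 1 lower, against 5.94% of all genes. Limma without the trend gave the same numbers, 0 and 5. Of the 4 higher ones, EPHA5, NTRK3 and KIT were each detected in 2 lung lines and nowhere else. They passed the filter only through the lung lines, so their place in this count is no support for higher lung levels. The unadjusted number was 1 without H661 and 3 without H522 or without H146. Leaving out a line also removes genes from the test. EPHA5 and NTRK3 were not tested without H522 or H661, nor KIT without H661 or H146. The lower numbers thus follow in part from the filter, and the share of all genes was not taken in these refits. The median difference was 0.32 over the 27 receptors, of which 14 were higher and 13 lower, and -0.02 over all genes. Upper-quartile scaling moved the median of all genes to 0.09 and that of the receptors to 0.39.

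MET came closest. The 5 lines of other tissues averaged 6.20 ± 0.66 (SD, n = 5) in log2(FPKM + 1), against 2.76 ± 1.39 (SD, n = 3) for lung. The difference was -3.45 (SE 0.62, 95% interval -4.84 to -2.06, limma adjusted p = 0.153), and without H146 it was -4.06 with an adjusted p of 0.0645. All 3 lung lines lay below all 5 others, which 2.23% of all genes also did and no other tested receptor. No receptor had all 3 lung lines above the others, as 2.07% of all genes had. In the pair of sets split by read steps the difference was -3.98 and -2.29. MET was lower in the lung lines in these libraries by more than the spread within either group, while the test over all genes did not call it.

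The receptors with the largest positive differences owed them to some of the lung lines. EPHA5 differed by 2.63 (SE 1.01, limma adjusted p = 0.794), with 52.6 in H522, 4.70 in H661 and 0.0310 in H146. NTRK3 differed by 2.33 (SE 0.82, limma adjusted p = 0.758) and was likewise high in H522 and H661 alone. Both genes passed the filter only through H522 and H661. Without H146 the limma adjusted p was 0.122 for EPHA5 and 0.0792 for NTRK3. EPHB1 differed by 2.02 (SE 0.74, limma adjusted p = 0.782), and its 1.09 in H522 lay below the 4.21 of KLE. On the lower side after MET came EPHA4 at -1.68 (SE 0.90, limma adjusted p = 0.857) and DDR2 at -1.18 (SE 1.11, limma adjusted p = 0.916). Without H716 EPHA4 differed by -0.97, and without 1321N1 DDR2 differed by -0.22. Within the set of H146, EPHA5 and NTRK3 differed by -0.12 and 0.00320, against 4.03 and 3.48 in the set of H522 and H661.

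**Figure D5:**
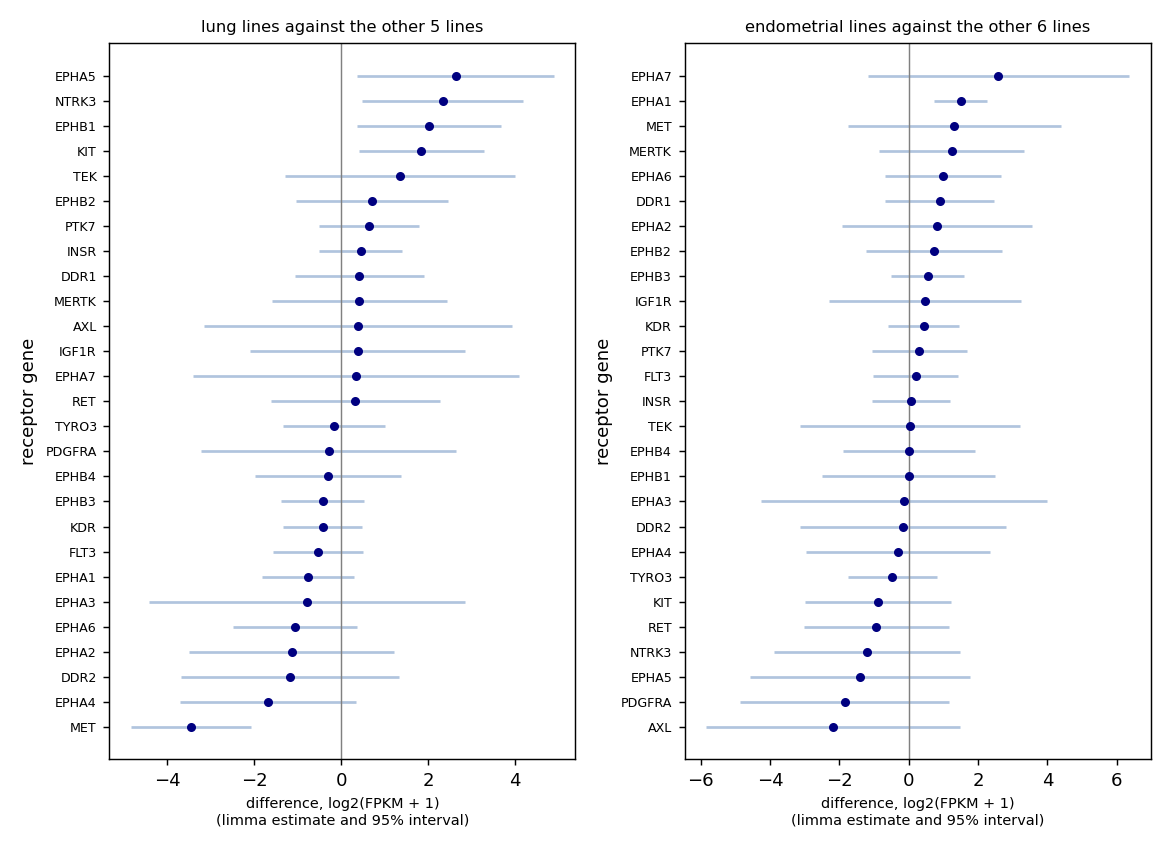
Difference in log2(FPKM + 1) of each of the 27 tested receptors, as limma's estimate (points) and 95% interval (lines), for the lung lines against the other 5 (left) and the endometrial lines against the other 6 (right). MET is lowest on the left at -3.45, and on the right the interval of EPHA1, at 1.50, lies above 0.

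The endometrial lines, KLE and HEC59, were compared with the other 6 lines in the same way. No receptor passed (limma, 0 of 27, against 0.00639% of all genes). EPHA1 alone had an unadjusted p under 0.05, 1 of 27 against 4.82% of all genes, and limma without the trend gave the same 0 and 1. With no filter the unadjusted number was 5. With a filter at 5 FPKM, which leaves EPHA1 out, it was 0. The 4.82% belongs to the main filter, and no share of all genes was taken under the others. The EPHA1 difference was 1.50 (SE 0.34, 95% interval 0.73 to 2.26, limma adjusted p = 0.543), with means of 1.65 ± 0.31 (SD, n = 2) and 0.15 ± 0.25 (SD, n = 6). Both endometrial lines lay above all others for EPHA1, as did 2.43% of all genes, and COV318 came next at 0.577. EPHA1 was detected in KLE and HEC59 alone, so it passed the filter only through them. Their place above the other lines followed from that filter and is no separate support. No receptor had both endometrial lines below all others (0 of 27, against 4.53% of all genes). Within the sets the EPHA1 difference was 1.82 and 1.18. The median difference was 0.06 over the 27 receptors (16 higher, 11 lower) and -0.11 over all genes.

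Among the other large differences KLE and HEC59 were furthest apart in EPHA7, which differed by 2.59 (SE 1.68, limma adjusted p = 0.954), from 114 in KLE and 0.215 in HEC59, and within the sets by 6.56 and -1.38. MET was higher by 1.31 (SE 1.37) and AXL, PDGFRA and EPHA5 lower by -2.19 (SE 1.63), -1.84 (SE 1.34) and -1.40 (SE 1.41), all with a limma adjusted p of 0.954. Intervals as wide as -1.76 to 4.39 for MET leave differences of several log2 units possible in either comparison.

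The partner genes did not pass either. Of the 42 ligand genes 26 were tested, of the 8 co-receptors 4 and of 19 adaptor genes 18, and none was called in the lung or the endometrial comparison (limma, 0 in each of the 6 cases). At an unadjusted p under 0.05 there were 3 ligands (all lower), 1 co-receptor (higher) and no adaptor in the lung lines, against 5.94% of all genes. In the endometrial lines there were 2 ligands, 1 co-receptor and 1 adaptor, all higher, against 4.82% of all genes. In the lung lines the smallest p among the ligands was that of EFNA5, an ephrin (log2 difference -3.38, SE 0.94, limma adjusted p = 0.558), and among the co-receptors that of LRP4, which serves MUSK. LRP4 lay between 3.52 in H661 and 7.38 in H522 among the lung lines and reached 1.72 at most elsewhere (2.07, SE 0.42, limma adjusted p = 0.227). In the endometrial lines it was that of IGF2 (2.85, SE 0.55, limma adjusted p = 0.336), at 6.65 and 13.6.

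The adaptors that serve the receptors were detected more widely. Of the 19 adaptor genes 13 were detected in all 8 lines, against 4 of the 42 receptors and 41% of protein-coding genes, and IRS4 was detected in none. For those 13 the highest level was a median of 3.31 times the lowest, with 17.4 times for SHC1 and 102 times for CBLB, a ubiquitin ligase. GAB1, GAB2, IRS1, IRS2 and FRS3 fell below 1 in some line and are not in that median. GRB2, which links receptors to RAS, lay between 22.3 and 64.9, PTPN11, a phosphatase of RAS signalling, between 31.0 and 80.2, and FRS2, an adaptor of FGF and neurotrophin receptors, between 17.6 and 58.3. IRS1, a substrate of the insulin and IGF1 receptors, was at 16.1 in H661 and 8.96 in 1321N1 but at 0.321 in H522, the line with the highest IGF1R. SHC1 was at 159 in H522 and 144 in 1321N1 and at 9.13 in H146.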

How the data were processed

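RNA was sequenced from 8 cell lines, 1 library each. Per the file headers, the authors deposited FPKM by Ensembl identifier. The submitters' processing notes name GRCh37, SAMtools 1.0, TopHat2 2.0.8 and CASAVA 1.4. What program computed FPKM, with which annotation and strand setting, was not given in the sources used here, so overlapping antisense genes and similar copies cannot be separated. Files give no counts, so absolute depth and counting error are unknown. Relative depth was read from the most frequent ratio between lines among values below 0.1.

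Members, lists and rules were chosen with earlier results of these data known. Every member is named. Those at an FPKM of 5 or more have values by line, and each tissue comparison gives the 3 largest differences in each direction. Genes detected (FPKM of 1 upwards) in 2 lines or more entered the test, as log2(FPKM + 1) with limma 3.58.1 in R 4.3.3 (trend, Benjamini-Hochberg, 0.05), checked on simulated data. Lines of a tissue are different tumours, so a p-value reflects how lines differ from each other. Alternatives were other pseudocounts, filters, scalings and detection levels, no trend, the set as a term, and each line left out. Protein-coding genes came from GENCODE 29 by identifier and promoters from RefSeq, both on GRCh38.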

Additional observations from a re-analysis of the deposited data

How the results depend on the processing

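No receptor was called in the lung or the endometrial comparison under any of the 16 alternatives of each, the set of lines as a term among them. Leaving out KLE or HEC59 leaves 1 endometrial library, which is then assumed to vary like the other lines. Receptors at an unadjusted p under 0.05 numbered 1 with a filter at 5 FPKM and 7 with no filter in the lung comparison, and 0 and 5 in the endometrial one. The filter also changes how many receptors and genes are tested. The share of all genes was not taken under these filters, so these numbers cannot be read against the main fit. The 12 named differences kept their direction in all 176 refits that gave a value. Over these the limma adjusted p of MET in the lung lines ranged from 0.0645 to 0.396 and that of EPHA1 in the endometrial lines from 0.211 to 0.924. With a detection level of 2 FPKM, 2 receptors were detected in all lines, and with a level of 5 FPKM, 0. When single lines were left out this number ranged from 4 to 7, the highest without H146, and receptors detected in at least 1 line from 29 to 31. With detection levels of 0.5, 2 and 5 FPKM, the latter number was 36, 29 and 23. Receptors led by 1 line numbered 6 to 10 when single lines were left out, 6 with a pseudocount of 5, 9 with a pseudocount of 0.1 and 12 with a lead of 1 (log2). Upper-quartile scaling moved the number detected in a line by at most 2. No paired analysis was possible, because each library is a different line and the labels match no line to another. FPKM without counts gives no interval for low values, so levels below 1 are not read as absence.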

Other observations

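Receptor genes that lie next to each other in the genome did not follow a single pattern. By the RefSeq gene order (GRCh38.p14), PDGFRA, KIT and KDR follow each other on chromosome 4 with no protein-coding gene between them. H146 had PDGFRA at 9.38 and KIT at 8.69 with KDR listed at 0. 1321N1 had PDGFRA at 50.1 with KIT listed at 0, H661 had KIT at 4.51 with PDGFRA at 0.555, and KLE and COV318 had KDR at 1.45 and 1.14 with neither of the others detected. CSF1R and PDGFRB are neighbours on chromosome 5, and 1321N1, with PDGFRB at 4.19, had CSF1R at 0.0537. FLT1 and FLT3, with 1 protein-coding gene between them on chromosome 13, were both detected in KLE (2.27 and 1.03), while COV318 had FLT3 at 2.44 and FLT1 at 0.0794. EPHA3 and EPHA6, with 5 genes between them on chromosome 3, were both detected in KLE and 1321N1, but H661 and H716 had EPHA3 detected and EPHA6 below 1.

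Ranked by the 31 detected receptors, H522 and H661 were the most alike pair of lines (Spearman's rho 0.644) and KLE and COV318 the next (0.607), as a description over genes that share libraries and scaling. H522 and H146, lines of the same tissue, were the least alike pair, at 0.117. Over all 15650 tested genes the same pairs came first (0.838 for H522 and H661, 0.846 for KLE and COV318), so that likeness is not particular to the receptors. H522 and H146 were at 0.688 over all genes, where KLE and H146 were the least alike, at 0.669.

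CBLB, which encodes a ubiquitin ligase that removes activated receptors, stood at 321 in HEC59, 17.0 times the next line (18.8 in H146). The related CBL was at 11.5 in HEC59, the lowest value of the lines. GAB2, a docking adaptor, was at 73.7 in H522 and at 0.889 in 1321N1, where the related GAB1 was at 25.0, its highest. CBLB and GAB2 were singled out after their values were seen.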
